A study of Mus musculus with 19 samples.

Results

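The genes of the microtubule-associated protein tau (Mapt), the prion protein (Prnp) and 5 further microtubule-associated proteins (Map2, Map1a, Map1b, Map4 and Map6) were followed in RNA sequencing libraries of mouse cerebral cortex. These 7 genes were taken by name, and all 7 were found among the 55487 genes of the deposited tables and passed the expression filter that left 19105 genes for testing. The 19 libraries came from male mice labelled P301S/E4 and recorded as 41 weeks old. The 10 lemborexant libraries came from mice that received lemborexant, an antagonist of both orexin receptors, at 30 mg/kg by gavage. The 9 vehicle libraries came from mice that received 0.5% methylcellulose. Dosing was daily at zeitgeber time 13, from 7.5 to 9.5 months of age. All mice of both groups thus carry the genotype label, which names a tau mutation of frontotemporal dementia and the E4 form of apolipoprotein E. The labels do not give the mouse line, the promoter that drives the tau transgene, or whether each library is a separate mouse, so p-values measure only the spread between these libraries.

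In GRCm38, Mapt (ENSMUSG00000018411) lies at chr11:104231390-104332090 and Prnp (ENSMUSG00000079037) at chr2:131909928-131938429, both on the plus strand. Map2 lies at chr1:66175273-66442583, Map1a at chr2:121289600-121310832, Map4 at chr9:109931460-110083955 and Map6 at chr7:99267447-99337137, all on the plus strand, and Map1b at chr13:99421446-99516540 on the minus strand. All 7 are annotated as protein-coding.

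Tau binds along axonal microtubules through repeats near its carboxyl end, and it aggregates in tauopathies. MAP2 and MAP4 carry related repeats. MAP2 is found mainly in dendrites, and MAP4 is the broadly expressed member of that family. MAP1A and MAP1B are large fibrous proteins of neurons, with MAP1B prominent in growing axons and MAP1A in mature neurons. MAP6, also known as STOP, makes microtubules stable in the cold. The prion protein is a membrane-anchored glycoprotein abundant in neurons, and its gene matters here for a further reason. Transgenic lines with P301S tau commonly express a human tau cDNA from the mouse prion gene or Thy1 promoter, and a construct of the first kind can carry untranslated Prnp exons. Reads of such a transgene may be counted under Mapt or Prnp, since the tables hold mouse genes.

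The 250 bases before the start of Prnp, at chr2:131909678-131909927 on the plus strand (RefSeq, GRCm38.p6), are shown because this promoter is the one used in some tau constructs and because Prnp stood higher together with Mapt. Capitals mark matches to the GC box GGGCGG or to its reverse complement CCGCCC.
Prnp upstream: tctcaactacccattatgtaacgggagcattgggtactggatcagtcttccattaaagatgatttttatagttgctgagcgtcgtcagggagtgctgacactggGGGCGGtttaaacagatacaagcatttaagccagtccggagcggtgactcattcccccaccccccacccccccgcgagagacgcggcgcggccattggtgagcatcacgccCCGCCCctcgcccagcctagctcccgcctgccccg
The Prnp window held 2 such matches, and 32.7% of the 32851 promoter windows in the table held at least 1. Promoter windows were found for 5 of the 7 genes. Map2 held 5 matches, Map1a 4 and Map1b 1, and the windows of Map4 held 3 and 0, so such matches are not particular to Prnp.

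The libraries fell into 2 sets by their level of Cst7. Cst7 encodes cystatin F, a protease inhibitor that activated microglia express around brain pathology. It stood at 16.4 to 144 CPM (a gene's reads scaled to the library's total) in 15 libraries and at 0 to 0.253 CPM in the other 4 libraries, which were lemborexant 1 and 10 and vehicle 1 and 4. In vehicle 1 it had no read, which allows up to 0.149 CPM by counting error alone. Cut-offs of 0.5 and 2 CPM gave the same sets as 1 CPM. These 4 libraries carry the same genotype label as the rest. Beyond that label, whether their mice carried the tau transgene was not tested, and the means and fits over all 19 libraries below include them. Since the sets were made from a measured level and not from a label, values are given for them without a test. The summed level of 15 microglial markers was 1880 to 6048 TPM (the same kind of share, per estimated transcript length) in the libraries with Cst7 at least 1 CPM, against 527 to 662 TPM in the others, and that of 9 astrocyte markers had a median of 4227 against 1230 TPM with no overlap. Neuronal markers, 14 in all, summed to 2248 to 7115 TPM with Cst7 at least 1 CPM and to 5453 to 8641 TPM below it. Oligodendrocyte markers, 11 in all, summed to 2643 to 9019 TPM with a median of 7463 with Cst7 at least 1 CPM, and to 3109 to 5576 TPM with a median of 3512 below it. The sum of 15 hippocampal markers did not overlap, at 211 to 1045 TPM with Cst7 at least 1 CPM and 1119 to 1207 TPM below it. No marker of these 5 lists was at 0 throughout either set. Cst7, which defined the sets, is itself among the 15 microglial markers and enters their sum. The part of cell and tissue content in the differences of Mapt and Prnp between the sets was not tested. In bulk tissue, fewer cells of a type and less RNA per cell cannot be told apart. Lemborexant 1 and 10, 3 and 8, and 4 and 9 were nearly alike: comparing their counts gave chi-square values of 3.08 to 3.66 for each degree of freedom, where the remaining 168 pairs gave 12.2 to 274. Depth was 20185098 to 31795633 estimated reads per library.

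Mapt counts were higher, and its transcripts were estimated as much shorter, in the libraries with Cst7. With Cst7 at least 1 CPM, Mapt ranged from 574 to 1046 CPM with a median of 774. In the 4 libraries below 1 CPM it stood at 457 and 461 CPM in lemborexant 1 and 10 and at 468 and 311 CPM in vehicle 1 and 4. The sets did not overlap, and the difference of median log2 CPM was 0.75, or 1.69-fold. Over all genes tested the median difference was -0.01, and 11.7% of genes had a larger one. Ranges that did not overlap were found for 8.60% of the genes tested in either direction, 6.33% higher and 2.27% lower in the libraries with Cst7. Of the 7 genes described here Mapt alone did not overlap in CPM, so 1 of 7 stands beside that 8.60%. In TPM, which divides by the estimated transcript length, the difference was larger. Mapt stood at 270 to 878 TPM with Cst7 at least 1 CPM, against 194, 208, 203 and 97.2 TPM in lemborexant 1 and 10 and vehicle 1 and 4. The difference of median log2 TPM was 1.57, or 2.98-fold, with 3.38% of genes above it. In TPM the ranges of 2 of the 7 genes, Mapt and Prnp, did not overlap, both higher with Cst7, beside 6.40% of all genes in either direction, 5.73% higher and 0.675% lower.

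**Figure D1:**
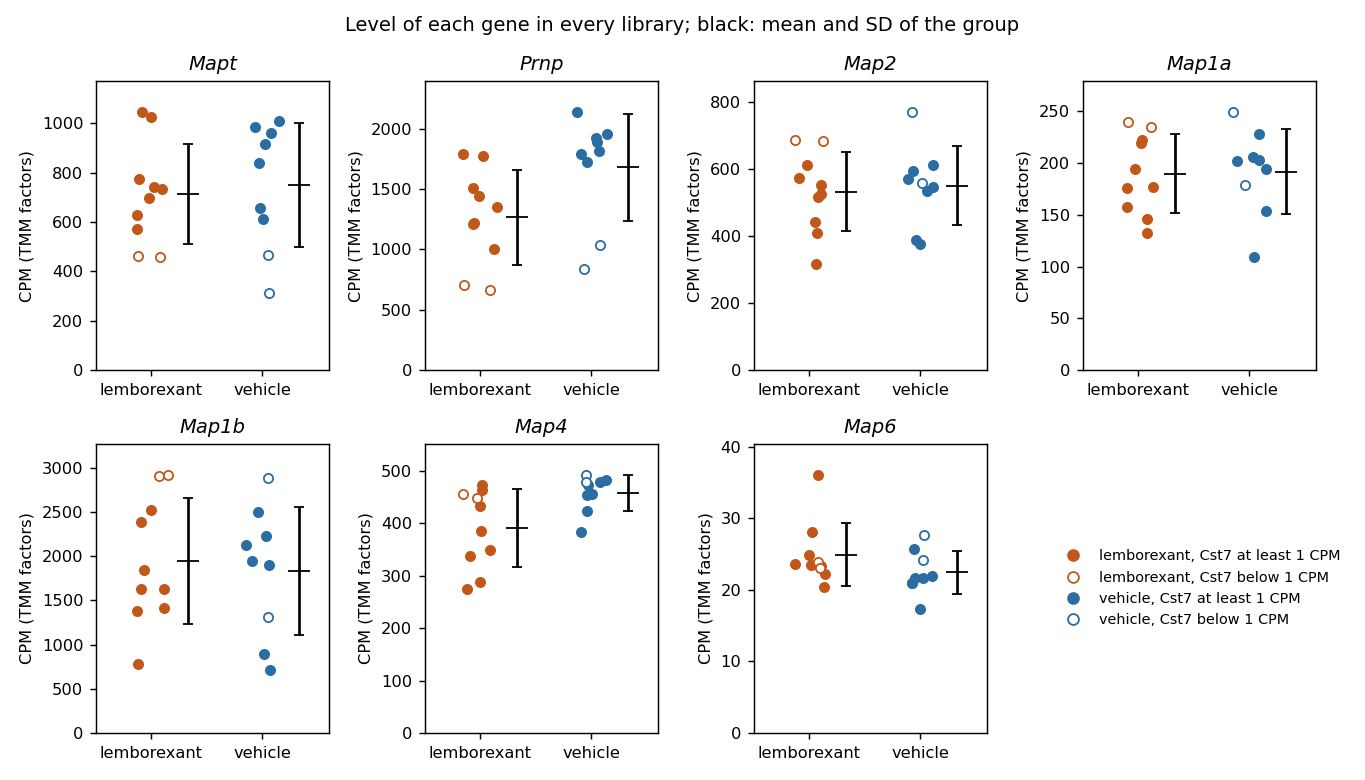
Level of each gene in CPM (y axes, linear from 0) in the 10 lemborexant and 9 vehicle libraries (x axes), filled where Cst7 is at least 1 CPM and open where it is below; black marks give the mean and SD of each group. The open points of Mapt and Prnp lie at the bottom of both groups, while those of Map1a, Map1b and Map2 lie high except in vehicle 4.

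The effective length of Mapt separated the 2 sets as well. The effective length of a gene is the length, in bases, of its transcripts weighted by their estimated abundance and shortened for the fragment size, as the authors' program gave it for each library. For Mapt it was 1618 to 2334 bases, with a median of 1835, in the 15 libraries with Cst7 at least 1 CPM. It was 3528 and 3313 bases in lemborexant 1 and 10 and 3313 and 3294 bases in vehicle 1 and 4. The difference of median log2 length was -0.85, which makes the estimate 1.80-fold longer in the libraries below 1 CPM. Among the 16109 genes that averaged 1 TPM or more, 13 had a larger difference in that direction. Ranges of effective length that did not overlap were found for 0.379% of these genes, 0.0869% higher and 0.292% lower with Cst7, and for 1 of the 7 genes described here. GENCODE M21 annotates 12 Mapt transcripts, of which the longest has 5253 bases and the next 2250 bases. Which transcripts the reads came from, and whether any came from the transgene, was not tested.

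None of the other 6 genes showed such a split. The effective length of Prnp was 2026 to 2047 bases with Cst7 at least 1 CPM and 2037 to 2046 bases below it, on a gene with an annotated longest transcript of 2184 bases. Map2 ranged from 3303 to 3667 bases against 3383 to 3772 bases, and Map6 from 2461 to 2932 against 2520 to 2860 bases. Map1a, Map1b and Map4 overlapped likewise. The median difference of log2 effective length over all genes was -0.01, with 5th and 95th percentiles of -0.12 and 0.11.

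**Figure D2:**
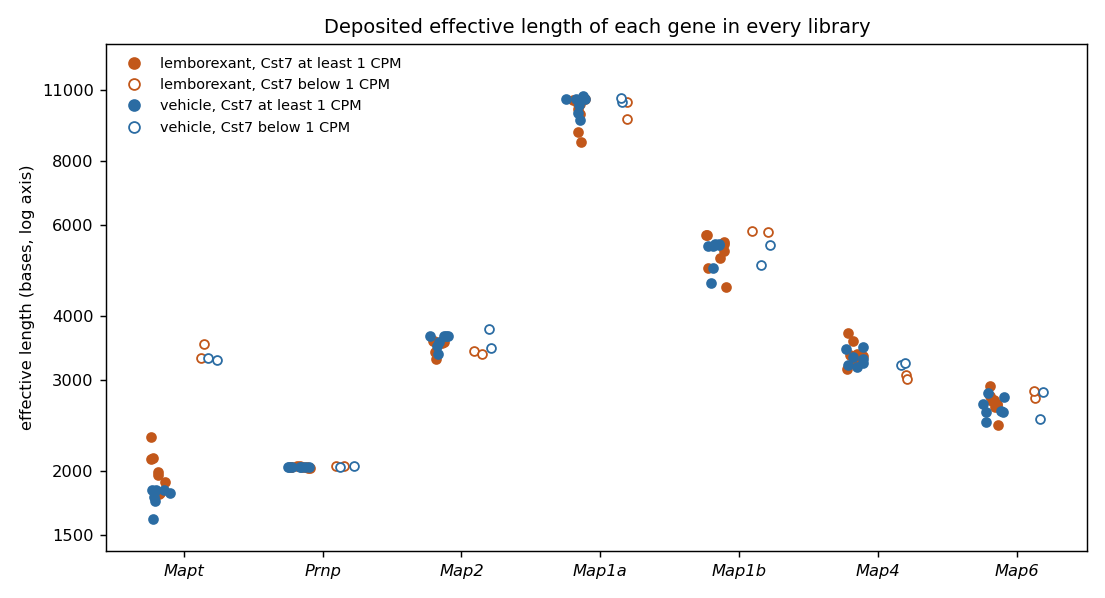
Deposited effective length (y axis, bases, log scale) of each of the 7 genes (x axis) in every library, with the libraries of Cst7 at least 1 CPM filled and to the left and those below 1 CPM open and to the right. The 4 open Mapt points at 3294 to 3528 bases stand apart from the 15 filled ones at 1618 to 2334 bases, and the other genes overlap.

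Prnp was higher with Cst7 as well, with overlapping effective lengths. It ranged from 1005 to 2137 CPM, with a median of 1769, in the libraries with Cst7 at least 1 CPM. It stood at 662 and 705 CPM in lemborexant 1 and 10, and at 835 and 1036 CPM in vehicle 1 and 4. The ranges overlapped at 1 point, since lemborexant 7 at 1005 CPM lay below vehicle 4. In TPM they did not overlap, at 662 to 1326 against 484 to 586 TPM. The difference of medians was 1.21 in log2 CPM, 2.31-fold, and 1.04 in log2 TPM. Of all genes tested, 5.76% had a larger difference in CPM and 7.09% in TPM.

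Few reads were counted for Prn, Prnd and Gm11659, which overlap the pair or, for Prnd, lie beside it. Prn, a gene model that spans Prnp and runs on in the same direction, had at most 0.666 CPM, and the neighbouring prion paralogue Prnd, which encodes doppel, at most 0.476 CPM. Gm11659, an antisense gene within Mapt, had at most 0.061 CPM. The strand setting of the counting is not given in the sources used here.

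Within the libraries with Cst7 at least 1 CPM, with both treatments pooled, Mapt and Prnp varied together only loosely in counts. Prnp averaged 1411 CPM with lemborexant and 1891 CPM with vehicle in these libraries. No correlation was computed within a treatment, so the pooled values need not hold in either group. Over 13 units, with the nearly alike libraries averaged, Pearson's r of log2 CPM was 0.55 (permutation p = 0.0528) and Spearman's rho 0.49 (permutation p = 0.0934), with r at 0.54 without the 2 units farthest from the median of Mapt. On log2(TPM + 1) the same 13 units gave r = 0.89 and rho = 0.90 (permutation p = 0.000300 and 0.000180), and r = 0.81 without the 2 farthest. TPM values of 1 library share a denominator, and those of Mapt also carry its estimated length. This was the 1 relation between members that was tested. Vehicle 5, with the highest Cst7 at 144 CPM, had the highest Prnp of all at 2137 CPM and a Mapt level of 658 CPM.

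**Figure D3:**
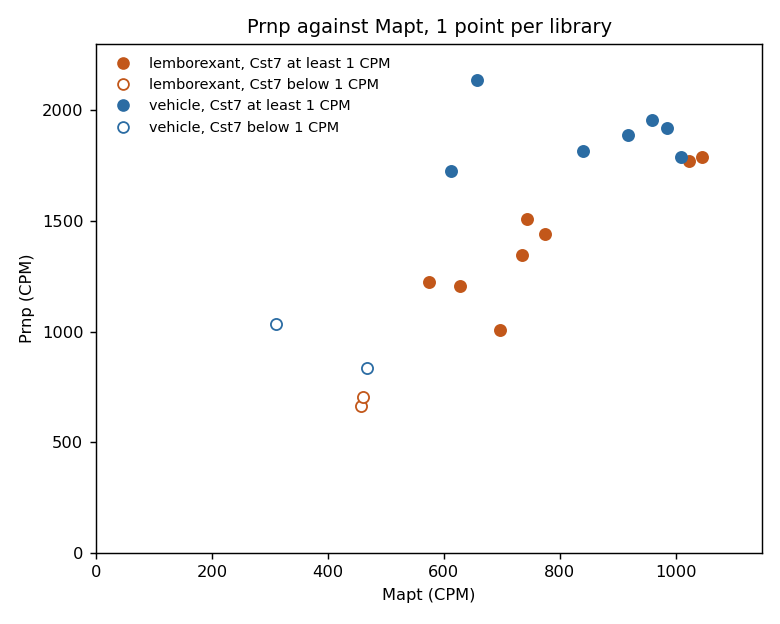
Prnp in CPM (y axis) against Mapt in CPM (x axis), with 1 point per library, coloured by treatment and open where Cst7 is below 1 CPM. The 4 open points lie at the lower left. Among filled points the vehicle libraries lie at 1726 CPM of Prnp or more. Below that lie 6 of 8 lemborexant libraries, among them the nearly alike lemborexant 4 and 9.

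The dendritic and axonal proteins of the MAP1 and MAP2 kind ran the other way, with overlap. Map1b stood at 715 to 2523 CPM, with a median of 1841, in libraries with Cst7 at least 1 CPM. It was at 2922 and 2904 CPM in lemborexant 1 and 10, 2883 CPM in vehicle 1 and 1308 CPM in vehicle 4. The difference of median log2 CPM was -0.65, and 4.09% of genes had a lower one. Map2 had 318 to 612 CPM with Cst7 at least 1 CPM, against 683, 688, 771 and 560 CPM in lemborexant 1 and 10 and vehicle 1 and 4. Map1a had 109 to 228 CPM, against 239, 235, 249 and 179 CPM in the same order. Their differences of medians were -0.36 for Map2 and -0.29 for Map1a. Vehicle 4 alone of its set lay inside the range of the other libraries for each of the 3 genes. Without it, 5 of the 7 genes had ranges that did not overlap, Mapt and Prnp higher and Map2, Map1a and Map1b lower, but the share over all genes was then 15.5%.

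The 3 libraries with most Cst7 had least Map1b and Map2. Vehicle 5, lemborexant 6 and vehicle 3 had 144, 131 and 122 CPM of Cst7. They were the 3 lowest of all 19 libraries for Map1b, at 715, 781 and 894 CPM, and for Map2, at 377, 318 and 388 CPM. Their neuronal marker sums of 2778, 2248 and 3217 TPM were likewise the lowest of the 19. Map1a was not ordered in the same way, since lemborexant 7, with 23.2 CPM of Cst7, had 146 CPM of Map1a and vehicle 3 had 154 CPM. The part of neuronal content in the MAP levels was not tested.

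Map4 and Map6 had close median CPM in both sets. Map4 had a median of 434 CPM with Cst7 at least 1 CPM and of 468 CPM below it. Map6 ranged from 17.3 to 36.1 CPM with Cst7 at least 1 CPM and from 23.0 to 27.7 CPM below it. The difference of median log2 CPM was -0.11 for each, and 61.4% and 61.7% of genes had a higher one. In log2 TPM it was -0.33 for Map4 and -0.12 for Map6, with 79.3% and 58.7% of genes higher.

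The order of the 7 genes by level, in TPM and hence per length, differed between the sets. With Cst7 at least 1 CPM the medians were 1064 TPM for Prnp, 591 for Mapt, 460 for Map1b, 219 for Map2, 174 for Map4, 25.4 for Map1a and 11.4 for Map6. Prnp was above Mapt in 15 of 15 libraries, and Mapt above Map1b in 14 of 15. Neighbours in this order overlapped in range except Map4 and Map1a. Below 1 CPM of Cst7 the medians were 746 TPM for Map1b, 519 for Prnp, 302 for Map2, 219 for Map4, 198 for Mapt, 34.1 for Map1a and 12.4 for Map6. Mapt was thus next to highest in the first set and the fifth in the second, where it lay below Map4 in 4 of 4 libraries. Each library had at least 399 reads of Map6 and at least 2503 of each other gene, so counting error is small beside the spread between libraries.

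Lemborexant changed none of the 7 genes past the threshold. The comparison asks whether chronic orexin receptor blockade altered these transcripts. Of 19105 genes tested in edgeR's quasi-likelihood test over all 19 libraries, 498 passed an adjusted p of 0.05, which is 2.61% (0.953% higher and 1.65% lower with lemborexant), and 0 of the 7 did. Map4 was the 1 of 7 with an unadjusted p under 0.05, and 0 of 7 passed in DESeq2 or in limma on log2(TPM + 1), with 2 and 1 at an unadjusted p under 0.05. The share of all genes at an unadjusted p under 0.05 was not taken for these fits, so those counts show nothing particular to the 7. The median log2 change of the 7 was -0.05, against 0.03 for all genes. With the nearly alike libraries summed, edgeR called 0 genes of 19224, with 4102 at an unadjusted p under 0.05, which is 21.3%. Beside that share stands 1 of the 7, Map4. With the libraries of low Cst7 also left out edgeR again called 0, and 20.4% had an unadjusted p under 0.05, beside 2 of the 7, Prnp and Map4.

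For Mapt the groups were close. It averaged 714 ± 202 CPM in lemborexant libraries and 752 ± 251 CPM in vehicle libraries (SD, n = 10 and 9). The lowest, median and highest values were 457, 717 and 1046 CPM with lemborexant and 311, 840 and 1010 CPM with vehicle, so the groups overlapped almost entirely. The log2 change was -0.07 ± 0.21 (SE, 95% interval -0.48 to 0.33, edgeR adjusted p = 0.848). Without the 4 libraries of low Cst7, the means of Mapt were 778 ± 171 CPM with lemborexant and 855 ± 160 CPM with vehicle (SD, n = 8 and 7). The log2 change there was -0.14 (95% interval -0.43 to 0.16, edgeR adjusted p = 0.596). On TPM over all libraries the sign was the other one, at 0.06, on a scale that moved the median change of all genes to 0.18.

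Prnp had the lowest log2 change of the 7 and did not pass. Over all libraries it had 662, 1285 and 1788 CPM as lowest, median and highest value with lemborexant, against 835, 1818 and 2137 CPM with vehicle. It averaged 1265 ± 391 CPM with lemborexant and 1679 ± 440 CPM with vehicle (SD, n = 10 and 9). On the log2 scale this was -0.41 (SE 0.20, 95% interval by the normal quantile -0.80 to -0.02, edgeR unadjusted p = 0.0546, adjusted p = 0.203). It was -0.38 within the libraries numbered over 1000 in the labels, 1 of 2 series of library numbers. There the lemborexant libraries are numbered 1064 to 1525 and the vehicle libraries 1574 to 1602, so treatment and number order cannot be told apart. With Cst7 at least 1 CPM the spread was narrower, at 1411 ± 274 CPM with lemborexant and 1891 ± 134 CPM with vehicle (SD, n = 8 and 7). There 6 of 8 lemborexant libraries lay below the lowest vehicle library at 1726 CPM. The others, at 1788 and 1769 CPM, were the nearly alike lemborexant 3 and 8. The 6 include the nearly alike lemborexant 4 and 9, so the 8 libraries form only 6 units. The log2 change was -0.43 ± 0.12 (SE, 95% interval -0.66 to -0.19), and edgeR's adjusted p of 0.0590 over 19230 genes lay just outside the threshold, which 2.71% of those genes passed, 1.06% higher and 1.66% lower with lemborexant. DESeq2 gave an adjusted p of 0.00713 for the same libraries, where it called far more genes than edgeR, so the 2.71% is not its share. The share of all genes that DESeq2 called was not taken, so its call of Prnp stands without one. Limma on log2(TPM + 1) gave 0.290 at a log2 change of -0.25, and edgeR with the pairs summed 0.0756. Without lemborexant 3 or 8 edgeR's adjusted p was 0.0351 or 0.0401, and without any 1 of the other 13 libraries it was above 0.05 and at most 0.110. The list of hippocampal markers moved with Prnp here, and whether its genes mark hippocampus alone in this tissue was not tested. Their sum was 211 to 834 TPM with lemborexant and 672 to 1045 TPM with vehicle in these 15 libraries, with lemborexant 3 and 8 the highest of the lemborexant libraries at 834 and 830 TPM. Of the 15 hippocampal markers 5 fell and of 10 tested thalamic markers 4 rose with lemborexant in these libraries (edgeR), and the thalamic sum was 81.4 to 502 TPM with lemborexant and 61.1 to 142 TPM with vehicle. None of 14 neuronal markers passed in these libraries (edgeR), and their median log2 change was -0.15. Among them Camk2a and Slc17a7 were at -0.81 and -0.58, and Gad2 at 0.44. The part of these 3 lists in the Prnp difference was not tested.

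**Figure D4:**
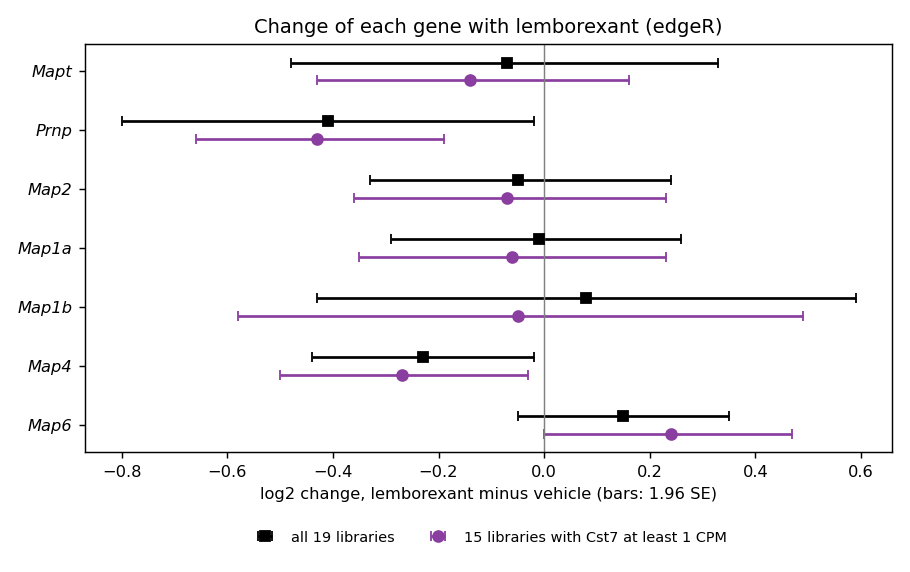
Log2 change of each gene, lemborexant minus vehicle (x axis), from edgeR, for all 19 libraries (squares) and for the 15 with Cst7 at least 1 CPM (circles). Bars give 95% intervals by the normal quantile, which are narrower than the test itself. Prnp and Map4 lie lowest in both fits, at -0.41 and -0.23 over all libraries, and no gene passes an adjusted p of 0.05 in edgeR.

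The effective length of Mapt was longer with lemborexant among the libraries with Cst7 at least 1 CPM. It was 2111, 1803, 1990, 1906, 2334, 2117, 1815 and 1970 bases in lemborexant 2 to 9. In vehicle 2, 3 and 5 to 9 it was 1835, 1842, 1618, 1817, 1780, 1835 and 1750 bases. Of the 8 lemborexant libraries 6 lay above every vehicle library, and the nearly alike lemborexant 3 and 8 lay inside the vehicle range. The 6 include the nearly alike lemborexant 4 and 9. The means were 2006 ± 178 bases with lemborexant and 1783 ± 79.9 bases with vehicle (SD, n = 8 and 7), a difference of 223 bases (exact two-sided permutation test over 6435 splits, p = 0.00497). With the pairs averaged the difference was 260 bases (exact permutation p = 0.00583, n = 6 and 7), and over all 19 libraries it was 168 bases (exact permutation p = 0.622). This test was chosen after the lengths had been seen. It has no adjustment over genes, and how many other genes differed as much in length by treatment was not counted. The 6 lemborexant libraries above the vehicle range are also the 6 below it in Prnp CPM. In the hippocampal sum 5 of these 6 lie below the lowest vehicle library, and lemborexant 5, at 720 TPM, lies inside the vehicle range.

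None of the remaining genes passed the threshold with treatment. Map4 averaged 391 ± 74.9 CPM with lemborexant and 458 ± 34.9 CPM with vehicle (SD, n = 10 and 9). Its difference was -0.23 on the log2 scale (95% interval -0.44 to -0.02, edgeR adjusted p = 0.181). Its lowest value was 274 CPM with lemborexant and 383 CPM with vehicle, so the lemborexant libraries spread further down. Map6 stood 0.15 higher with lemborexant on the log2 scale (95% interval -0.05 to 0.35, edgeR adjusted p = 0.348), and was highest in lemborexant 7 at 36.1 CPM. Map2 had a log2 change of -0.05 (95% interval -0.33 to 0.24), Map1a of -0.01 (-0.29 to 0.26) and Map1b of 0.08 (-0.43 to 0.59). Leaving out the libraries of low Cst7 moved Map1b to -0.05 and no other sign.

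Other genes of the microtubule system were counted from lists chosen with earlier results known. Of 30 further microtubule-associated proteins, 1 rose and 2 fell with lemborexant. Mtcl1, which crosslinks microtubules, was 0.57 higher with lemborexant on the log2 scale (edgeR adjusted p = 0.0254). The plus-end binding protein gene Mapre3 and the doublecortin-like kinase gene Dclk2 fell, by 0.31 and 0.32 on the log2 scale (edgeR adjusted p = 0.0408 and 0.0486). Of 10 stathmins and severing enzymes 1 rose, Fign, which encodes the severing enzyme fidgetin, by 1.29 ± 0.28 (SE, edgeR adjusted p = 0.0274). Of 16 tubulin-modifying enzymes 1 rose and 1 fell. Vash2, a tubulin detyrosinase, had a log2 change of 0.90 and the polyglutamylase gene Ttll11 -0.47 (edgeR adjusted p = 0.0439 and 0.0254). None of 14 tubulins, 12 axonal motors, 11 tested prion protein relatives and partners and 10 tested neighbours of the Mapt and Prnp loci passed in edgeR. Over all genes 182 rose and 316 fell. Without the libraries of low Cst7, Mtcl1, Fign, Vash2 and Ttll11 passed and Mapre3 and Dclk2 did not (edgeR adjusted p = 0.142 and 0.102). Every call in edgeR was lost with the nearly alike libraries summed.

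Between the sets of libraries by Cst7, the median difference of all genes was -0.01. Median differences of log2 CPM were -0.05 for the further microtubule-associated proteins, -0.20 for tubulins, -0.21 for axonal motors, -0.05 for stathmins and severing enzymes, 0.02 for tubulin-modifying enzymes, 0.12 for prion protein relatives and partners and -0.11 for neighbours of the Mapt and Prnp loci. Differences were negative for 10 of 14 tubulins and for 11 of 12 axonal motors, among them the kinesin heavy chain gene Kif5a at -1.04, with overlap. Another kinesin heavy chain gene, Kif5c, was the 1 motor without overlap, at -0.21. Of 14 tubulins 1 did not overlap, Tubg1 (gamma-tubulin), at 41.2 to 52.1 CPM with Cst7 at least 1 CPM and 54.6 to 69.4 CPM below it. Of 10 stathmins and severing enzymes 2 were lower without overlap, among them the neuronal stathmin gene Stmn2, at 257 to 397 against 434 to 620 CPM. Of 16 tubulin-modifying enzymes 1 was higher and 1 lower without overlap. Sirt2, a tubulin deacetylase gene, stood at 206 to 360 CPM with Cst7 at least 1 CPM and 176 to 190 CPM below it, and Agtpbp1, a tubulin deglutamylase gene, at -0.27. Of the 30 further microtubule-associated proteins 1, Map9, was lower without overlap, at -0.50. Of 11 prion protein relatives and partners 1 was higher, Cav1 (caveolin), at 0.83, and 2 were lower, the glutamate receptor gene Grm5 at -0.49 and Gpi1 at -0.32. Of the locus neighbours 0 of 10 had ranges apart, beside 8.60% of all genes. Next to Mapt, Crhr1 and Nsf had differences of -0.60 and -0.76, and Rassf2 near Prnp 0.74, each with overlapping ranges and named after their values were seen. Microglial markers had a median difference of 2.82, with 13 of 15 higher and not overlapping, astrocyte markers 1.02 with 7 of 9, and oligodendrocyte markers 0.86 with 3 of 11 and 11 of 11 positive. Neuronal markers had -0.38 with 4 of 14 lower and not overlapping, and hippocampal markers -0.38 with 2 of 15 and 13 of 15 negative. Cst7, which defined the sets, is itself among the 15 microglial markers and the 13 not overlapping, so its own separation was fixed by the rule.

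**Figure D5:**
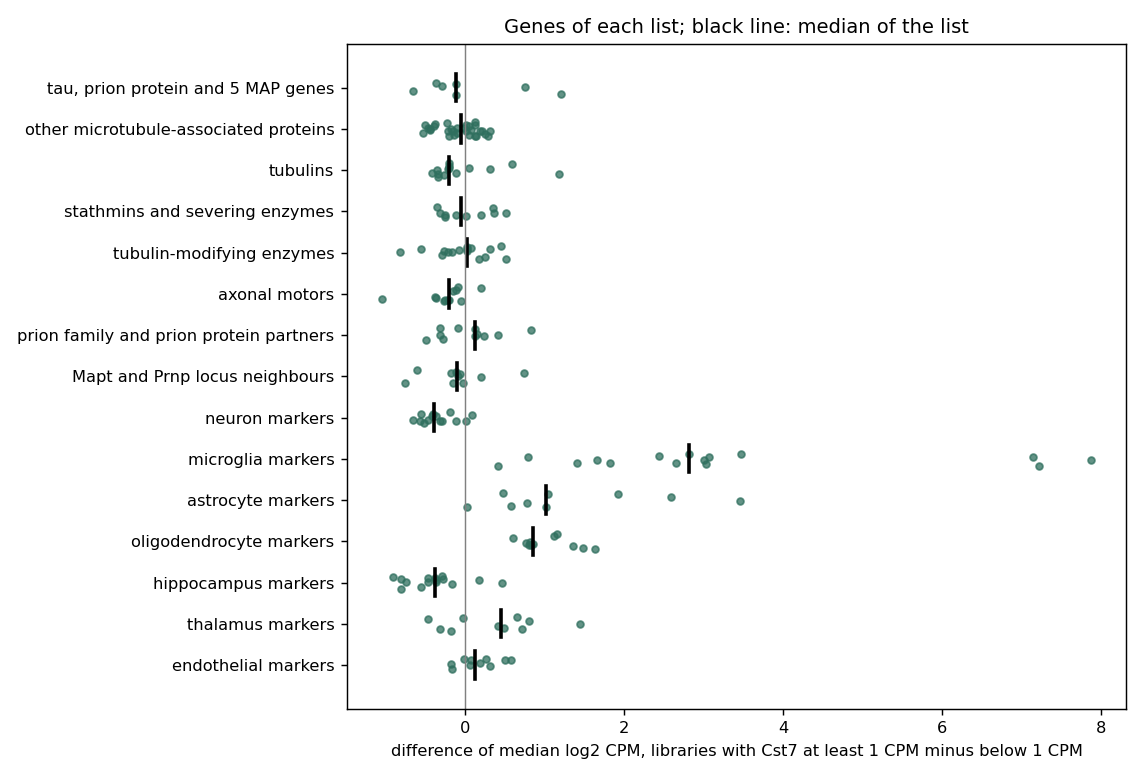
Difference of median log2 CPM, libraries with Cst7 at least 1 CPM minus those below (x axis), for each gene (points) of each list (rows), with the median of the list as a black line. In the top row Mapt and Prnp stand at 0.75 and 1.21 while the other 5 genes lie at or below -0.11. Microglial markers, among them Cst7 itself, reach the highest values.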

How the data were processed

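Estimated counts (NumReads), TPM and effective lengths of 55487 genes per library were deposited, per the file headers. The submitters' processing notes name bcl2fastq, DRAGEN 3.9.3-8 and the build GRCm38. Annotation and strand setting: not given in the sources used here. The deposited estimated counts were rounded. The deposited TPM values are scaled to each library and to effective length, so a TPM of Mapt depends on its estimated length. Groups follow the treatment labels, with replicates numbered within a group. Libraries were made from frozen cortex with a low-input SMARTer kit, per the labels' protocols. Triplicates are mentioned in the design text, but the sample labels give 10 and 9 libraries and were followed.

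Treatment was tested with the quasi-likelihood method of edgeR 4.0.16 (R 4.3.3) with TMM factors, the expression filter and robust dispersion, Benjamini-Hochberg adjusted over all 19105 genes at 0.05. The SE is the log2 change divided by the square root of F, and 95% intervals use the normal quantile. They are therefore narrower than the test itself, and that of Prnp over all libraries leaves out 0 at an unadjusted edgeR p of 0.0546. Levels are CPM with TMM factors. DESeq2 1.42.0 and limma 3.58.1 were alternatives. Differences between the sets by Cst7 are of medians of log2(value + 0.1), and their ranges were compared without a test. Fits were checked on simulated counts. Symbols, transcripts and coordinates came from GENCODE M21 and the promoter window from RefSeq. The genes and lists were chosen with earlier results of these data known. All 7 genes are always given; list genes named are up to 3 per direction with the smallest p past the threshold, and list genes named between the sets by Cst7 were chosen after their values were seen. Items withheld from this text are not reported here.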

Additional observations from a re-analysis of the deposited data

Results flagged for a closer look

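A single library lay far from the rest of its group in 2 of 28 groups examined, which were the CPM and the effective length of the 7 genes in lemborexant and in vehicle libraries. Chance flags about 1 in 20 such groups. Map6 stood at 36.1 CPM in lemborexant 7, against at most 28.1 CPM in the other 9 lemborexant libraries. The effective length of Prnp was 2046 bases in vehicle 1, against 2034 to 2039 bases in the other 8 vehicle libraries, a gap of a few bases on a gene that hardly varied.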

How the results depend on the processing

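No paired analysis was possible because the labels give no replicate number shared between the groups. Over all 19 libraries, 0 of the 7 genes passed under any alternative run, and Prnp, Map4 and Map6 kept their direction in all of them. Genes called overall moved from 498 to 254 with no expression filter, 1879 in DESeq2, 118 and 26 in limma on log2(TPM + 1) and log2(TPM + 0.1), 0 with the pairs summed (also without low Cst7), 294 with the library number series as a covariate, 8 within the libraries numbered over 1000, and 307 without lemborexant 7 and vehicle 7. Leaving out 1 library gave 31 to 1274, and moved the count by over 1.5 times for 13 of 19: lemborexant 2 (237), 4 (35), 6 (1130), 8 (257) and 9 (31), and vehicle 1 (844), 2 (250), 3 (189), 4 (39), 5 (76), 6 (275), 7 (302) and 8 (1274). On log2(TPM + 1) the log2 changes of Mapt, Map2 and Map1a turned to 0.06, 0.20 and 0.26, and on log2(TPM + 0.1) to 0.06, 0.20 and 0.27, while the median of all genes moved from 0.03 to 0.18 and 0.20. Mapt was 0.04 within the libraries numbered over 1000, and Map1a 0.03 without lemborexant 7 and vehicle 7. Map1b was -0.04 with pairs summed, -0.05 without low Cst7 and -0.14 with both. Leaving out 1 library gave -0.10 to 0.02 for Map2, -0.09 to 0.04 for Map1a and -0.02 to 0.19 for Map1b. The cause was not tested. Among libraries with Cst7 at least 1 CPM, genes called moved from 522 to 104 in limma on log2(TPM + 1), 1837 in DESeq2, 0 with pairs summed and 0 to 752 without 1 library, with 0 called without lemborexant 4, lemborexant 9 or vehicle 2, and 190 without lemborexant 2, 167, 86, 85, 223 and 303 without vehicle 3, 5, 6, 7 and 9. Members called were 1 in DESeq2, which is Prnp (-0.43, adjusted p = 0.00713), and 0 to 1 without 1 library, where Prnp ranged from -0.48 to -0.37. No share over all genes was taken beside the DESeq2 call. Genes with ranges apart by Cst7 were 2 of 7 in TPM and in CPM with no factors, beside 6.40% and 8.07% of all genes. Without 1 library they were 1 to 5 of 7. It was 2 without lemborexant 7, beside 9.84% of all genes, and 5 without vehicle 4, beside 15.5%. The Mapt difference was 1.57 in TPM. The correlation of Prnp with Mapt was 0.89 on log2(TPM + 1) and 0.56 (permutation p = 0.0311) with all 15 libraries separate. The Mapt length difference was 168 bases over 19 libraries and 176 to 252 bases without 1 library. With at least 399 reads for each gene in every library, counting limits none of these.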

Other observations

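Over the 13 units with Cst7 at least 1 CPM, protein-coding genes whose log2 CPM ran most like that of Mapt included Mcf2l, a guanine nucleotide exchange factor, and Sel1l, a part of the machinery that clears misfolded proteins from the endoplasmic reticulum. Each had a Pearson r of 0.971 with Mapt among 14157 genes. Map1b and Map2 had r of 0.874 and 0.853 with Mapt and ranked 203 and 323 there. For Prnp the 3 most alike were Camkv (0.987), a synaptic kinase-like protein, Fam131a (0.984) and Ppp3r1 (0.981), the regulatory subunit of calcineurin. Map4 had r of 0.857 with Prnp and Map6 -0.803, while Map1b had 0.139. Genes of 1 library share its depth and cell content, and these values only describe the 13 units, with both treatments pooled.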
